A study of Mus musculus with 24 samples.

Results

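The clustered protocadherins are cell adhesion genes that lie side by side in 3 arrays, the alpha, beta and gamma clusters, on mouse chromosome 18. They were taken as every gene whose symbol is Pcdha, Pcdhb, Pcdhga, Pcdhgb, Pcdhac or Pcdhgc followed by its number, which gave 58 genes among the 55471 counted: 14 alpha, 22 beta and 22 gamma genes. In mm10 coordinates, all on the plus strand, the alpha cluster runs from 36930184 to 37187661, the beta cluster from 37264938 to 37524479 and the gamma cluster from 37661793 to 37841873. The expression filter passed 57 of the 58 genes. The remaining gene, Pcdha11, had a mean of 5.91 counts per library and was not tested.

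Hypothalamic RNA of 24 male C57BL/6J mice aged 18 weeks was sequenced in 4 groups of 6. ExpOF mice received a liquid diet with 20% sucrose through an intragastric catheter, raised to 150% of their energy needs, and control mice received sterile water through the same kind of catheter. Mice were killed on the last day of the 14 days of infusion (d14) or 3 days later, when ExpOF mice were also on water (d14+3). All mice were wild-type, carried the catheter and had free access to chow. Within every group, 3 mice had been killed in July and 3 in September according to the labels.

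Clustered protocadherins are single-pass membrane proteins of neurons, and each bears a row of extracellular cadherin repeats. A neuron switches on a small and largely random choice of alpha, beta and gamma promoters, and matching combinations on meeting membranes bind each other, which lets sister dendrites and axons tell self from non-self. The choice depends on DNA methylation of the promoters and on loops held by CTCF and cohesin. Every alpha gene splices its own large first exon to shared alpha constant exons, every gamma gene does the same with gamma constant exons, and beta genes consist of a single exon with no constant part. The C-type genes at the 3′ ends of the alpha and gamma clusters (Pcdhac1, Pcdhac2, Pcdhgc3, Pcdhgc4 and Pcdhgc5) are regulated apart from the others and are widely used by neurons. Bulk tissue holds many neurons with different choices, so a low level cannot tell fewer expressing cells from less RNA per cell.

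The shared exons set how well the counts can be assigned. Between 38.9% and 91.4% of the exon bases of an alpha gene lay in another gene on the same strand (median 53.6%), and in the gamma cluster the range was 31.5% to 66.8% (median 44.7%). All 22 beta genes were single exons, and at most 9.67% of their bases were shared, by Pcdhb21 and Pcdhb22. Reads from a shared exon cannot be assigned to 1 gene, so values of alpha and gamma genes rest mainly on their own first exons and levels are given per kilobase of these own bases. Pcdha4 had only 494 own bases, because the readthrough gene Gm42416 covers most of its first exon. All own bases of Pcdhga10 were also covered by Gm26672 on the opposite strand, so that its reads and antisense reads cannot be told apart where counting ignored strand. In all, 13 of the 58 genes had some own bases under an antisense gene, among them Pcdha4, Pcdha12, Pcdhb12, Pcdhga7 and Pcdhgc3, and are uncertain to that extent. Pcdha10 and Pcdha11 carry the same symbol in the annotation and were told apart by the nearest RefSeq start.

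Total counts ranged from 8928182 to 34848437 in 23 libraries. The study left out 1 Control d14 mouse for poor RNA quality, and Control d14 replicate 4 was taken as that library because its counts stood apart: its median Spearman correlation with its own group was 0.935, against 0.983 to 0.995 in the other 23. The clustered protocadherins were also far lower there, although its labelled RNA integrity number (RIN) was 9.8. Its choroid plexus, hypothalamic and meningeal genes summed to 4527, 2768 and 1391 CPM, against at most 3058, 1441 and 656 in the other Control d14 libraries. Its neuronal genes were lower, at 3682 CPM against 4654 to 4848. The part of these in its values was not tested. The summed alpha level was 8.66 CPM (counts relative to the TMM-scaled library size) and that of the other Control d14 libraries 43.2, a 4.98-fold difference. For gamma the values were 34.9 and 227 CPM (6.51-fold) and for beta 64.5 and 116 CPM (1.79-fold). Of the 58 genes, 52 were below every other Control d14 library there and 1, Pcdhb3, was above them all at 10.4 CPM. Values below are over the other 23 libraries, and Control d14 has n = 5. All 16 hypothalamic genes that were read, such as Pomc, Agrp and Nkx2-1, passed the expression filter. So did 7 of 7 genes of thalamus and cortex and 7 of 7 meningeal genes, so the filter cannot tell how cleanly the tissue was dissected.

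Every cluster was expressed in the hypothalamus. Per kilobase of own bases, the median level was 3.12 CPM for gamma, 1.12 for beta and 1.05 for alpha genes. The range within a cluster was wider than the difference between clusters, from 0.0527 (Pcdha11) to 7.33 (Pcdhac2) in alpha, from 0.178 (Pcdhb1) to 4.04 (Pcdhb9) in beta and from 0.255 (Pcdhga10) to 11.9 (Pcdhgc4) in gamma. Over the full gene length deposited with the counts, the gamma median was 1.74 and the alpha median 0.460 CPM per kilobase, while the beta median stayed at 1.12, so the distance between alpha and beta depends on the length used.

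**Figure D1:**
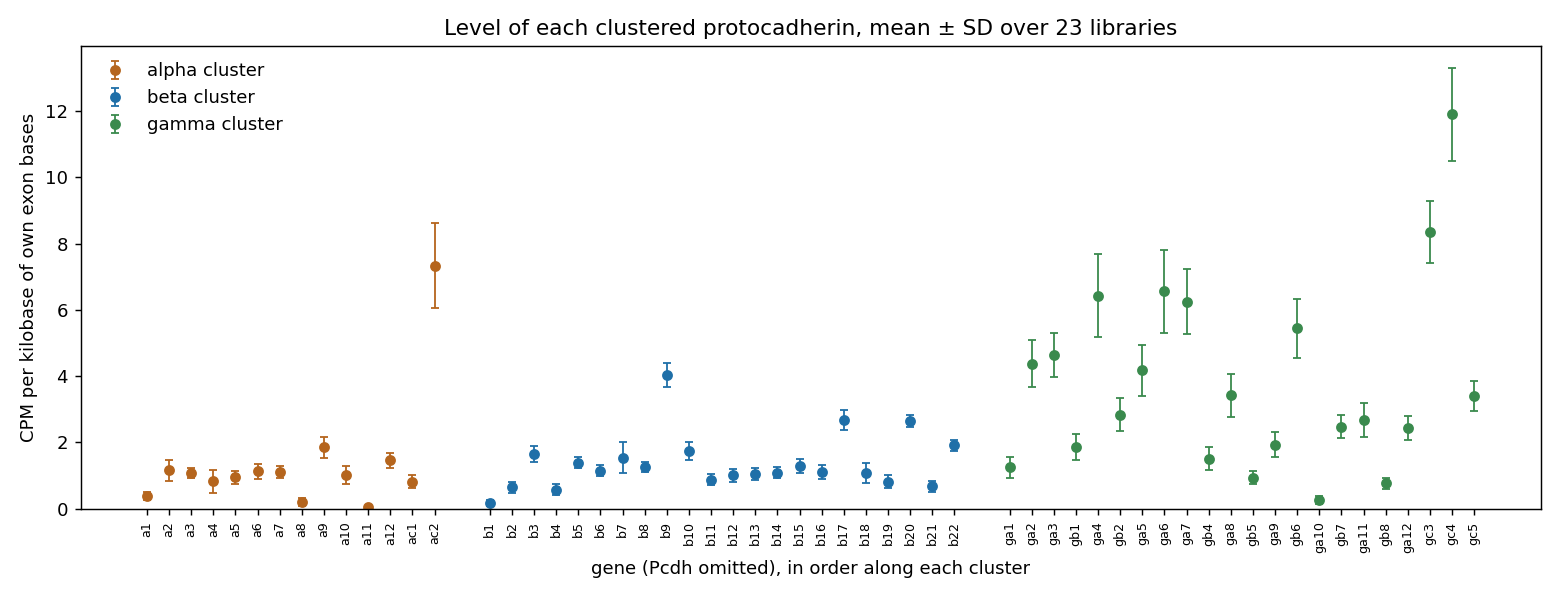
Level of the 58 clustered protocadherins in CPM per kilobase of own exon bases (vertical axis), in order along each cluster (horizontal axis). Points are means and bars SD over 23 libraries. Most genes of the alpha and beta clusters lie near 1 CPM per kilobase, and Pcdhgc4, Pcdhgc3 and Pcdhac2 are the highest of all.

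The 3 highest genes were C-type. Pcdhgc4, which neurons need for survival in development, stood at 11.9 ± 1.40 CPM per kilobase (SD, n = 23), Pcdhgc3 at 8.35 ± 0.943 and Pcdhac2 at 7.33 ± 1.28. Pcdhgc4 was above Pcdhgc3 in all 23 libraries and Pcdhgc3 above Pcdhac2 in 20 of 23. Of the 3380 own bases of Pcdhgc3, 1559 were also covered by BC037039 on the opposite strand, so its level and its rank are uncertain where counting ignored strand. The other C-type genes were not among them: Pcdhgc5 ranked 13 of 58 at 3.41 ± 0.450 and Pcdhac1 ranked 49 at 0.809 ± 0.196.

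Next came gamma A genes, Pcdhga6 at 6.56, Pcdhga4 at 6.43 and Pcdhga7 at 6.26 CPM per kilobase. These neighbours did not differ beyond their spread: Pcdhga6 was above Pcdhga4 in 12 of 23 libraries and Pcdhga4 above Pcdhga7 in 13. Pcdhga4 had only 1570 own bases, the fewest in its cluster, and its rank depends on the length used. Over the deposited length it was at 2.14 CPM per kilobase, against 3.62 for Pcdhga6 and 3.71 for Pcdhga7. Beta genes began at rank 11 with Pcdhb9, followed by Pcdhb17 at 2.68 ± 0.304 and Pcdhb20 at 2.66. The alpha genes apart from Pcdhac2 lay lower, led by Pcdha9 at 1.86 ± 0.314 and Pcdha12 at 1.46 ± 0.218.

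A few genes took much of each cluster's signal, and the shares moved little among the groups. Pcdhac2 gave 44.3% ± 2.22 (SD, n = 23) of the summed alpha CPM, with group means from 42.6% to 45.7%. Pcdhgc4 gave 16.7% ± 0.970 of gamma, with group means from 16.2% to 17.4%, and Pcdhgc3 11.4% ± 1.02. The beta cluster had no such leader, as Pcdhb17 gave 10.0% ± 0.678, Pcdhb9 9.97% ± 1.15 and Pcdhb22 9.47% ± 0.924.

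The first question was whether overfeeding altered the clusters on d14. The summed alpha level was 33.8, 40.2, 40.4, 43.9 and 57.5 CPM in the Control d14 libraries, and between 47.3 and 57.1 CPM (median 54.8) in ExpOF d14. The summed beta level was 104, 109, 112, 122 and 131 CPM in Control d14 and between 127 and 135 CPM (median 129) in ExpOF d14. The summed gamma level was 184, 205, 207, 246 and 294 CPM in Control d14 and between 241 and 283 CPM (median 269) in ExpOF d14. In each cluster, Control d14 replicate 1 lay within or above the range of the ExpOF d14 libraries, so the groups overlapped, and 4, 4 and 3 of the 5 control libraries lay below that range in alpha, beta and gamma. The ratio of the means was 1.24 for alpha (53.6 ± 3.80 and 43.2 ± 8.81 CPM, SD), 1.12 for beta (130 ± 2.84 and 116 ± 11.0) and 1.17 for gamma (266 ± 16.4 and 227 ± 43.9). On d14 the SD of the control libraries was the larger in all 3 clusters.

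**Figure D2:**
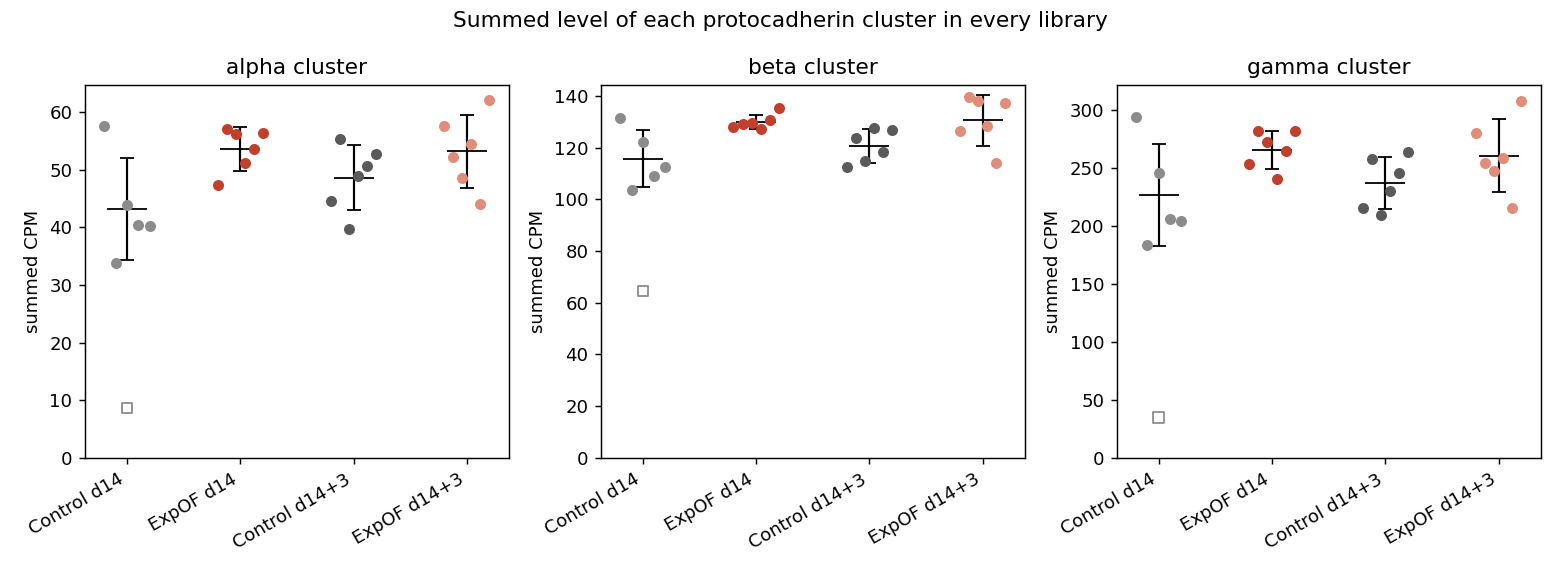
Summed CPM of the genes of each cluster (vertical axis, from 0) in every library of the 4 groups. Filled points are the 23 libraries used, the dash and bars are mean and SD, and the open square is Control d14 replicate 4. ExpOF means are above the control means in each panel, the filled points of ExpOF and control mice overlap, and the open square is at 8.66, 64.5 and 34.9 CPM in alpha, beta and gamma.

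Gene by gene, 0 of the 57 tested members passed an adjusted p of 0.05 on d14 (edgeR quasi-likelihood test, Benjamini-Hochberg over 18992 genes). The background was 0.00527% of all genes. At an unadjusted p under 0.05, 15 members were higher in ExpOF (3 alpha, 6 beta and 6 gamma) and 0 were lower, where the background was 13.1% of all genes higher and 13.6% lower. DESeq2 called 0 members after adjustment, against 0.874% of all genes, and gave 19 higher at an unadjusted p under 0.05, against 14.5%. The direction was nearly uniform: 54 of the 57 fold changes were above 0, against 46.6% of all genes. The median log2 fold change was 0.30 for alpha, 0.11 for beta and 0.26 for gamma, and over all genes it was -0.021.

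These counts depended on single control libraries. Without Control d14 replicate 1, 22 of the 57 members passed adjustment (3 alpha, 6 beta and 13 gamma), all higher, against a background of 22% of all genes, and 34 were higher at an unadjusted p under 0.05 against 19.7%. The count at an unadjusted p under 0.05 was 6 without Control d14 replicate 2 (6.58% of all genes higher in that fit), 8 without replicate 5 (6.7%) and 9 without replicate 6 (8.48%). Leaving out any 1 ExpOF d14 library gave between 10 and 17, where the share of all genes was between 9.57% and 12.5%. Replicate 1 had an RIN of 8.6, the highest summed level of 7 meningeal genes in its group (656 CPM) and of 7 pituitary genes (106 CPM, against at most 41.5 in the other Control d14 libraries), and the part of these in the counts was not tested.

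**Figure D3:**
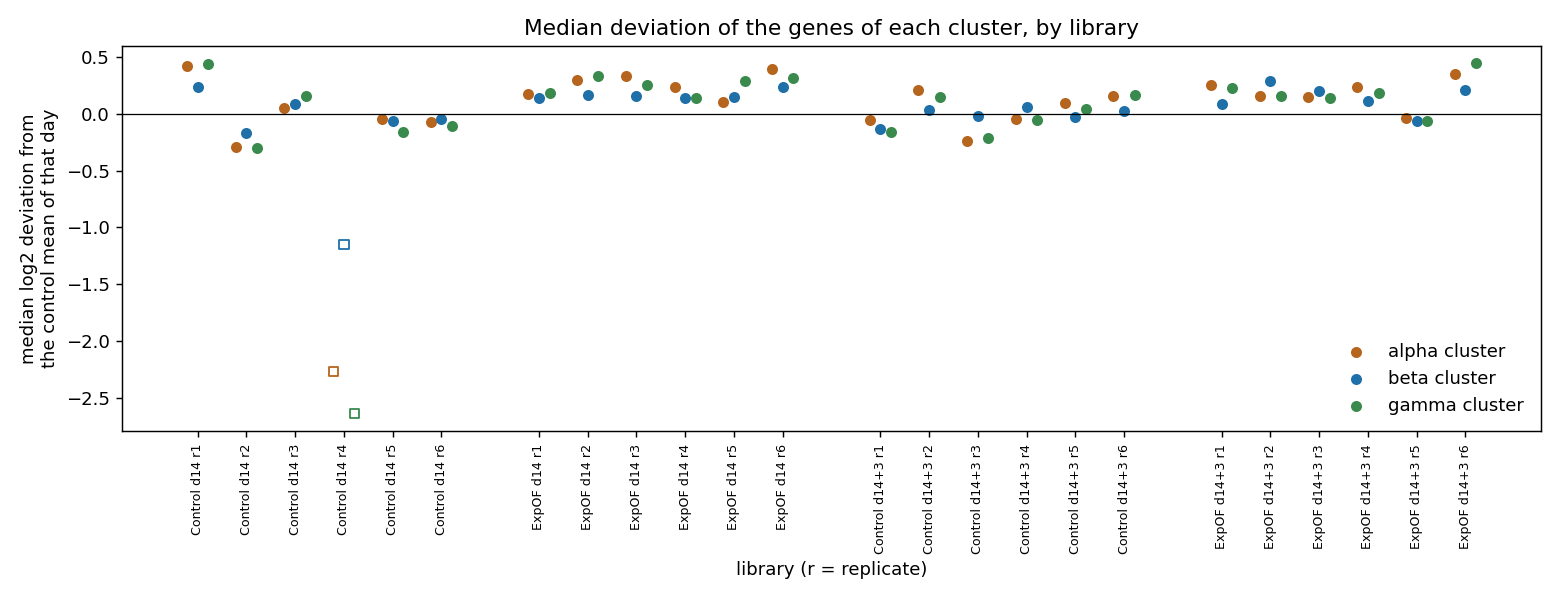
Median log2 deviation of the tested genes of each cluster from the control mean of the same day (vertical axis) in each of the 24 libraries (horizontal axis). Over all members Control d14 replicate 1 lies at 0.38 and the ExpOF d14 libraries at 0.14 to 0.30, and the open squares mark Control d14 replicate 4.

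Libraries differed by a shift that covered most members. The median deviation over the 57 members ranged from 0.14 to 0.30 on the log2 scale in the 6 ExpOF d14 libraries. In Control d14 it was 0.38 in replicate 1, where 53 of 57 members were above the control mean, and -0.24 in replicate 2, where 9 were. The remaining Control d14 libraries lay between -0.11 and 0.094.

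The member with the smallest p on d14 was Pcdhb17, a single-exon beta gene. Its level was 9.43, 10.5, 10.7, 11.6 and 12.5 CPM in Control d14 and between 12.1 and 14.6 CPM (median 13.0) in ExpOF d14. Only the highest control, replicate 1, reached the ExpOF range. The log2 fold change was 0.26 ± 0.084 (SE) with an adjusted p of 0.135 by the edgeR quasi-likelihood test, and it was 0.24 in both the July and the September mice.

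Pcdhb14 was 6.70, 6.90, 8.53, 9.37 and 9.98 CPM in Control d14 and between 8.56 and 11.2 CPM (median 10.8) in ExpOF d14. Of the 6 ExpOF libraries 5 were above every control, and replicate 5 was not. The log2 fold change was 0.35 ± 0.12 (adjusted p = 0.135, edgeR).

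Pcdhac2, the leading alpha gene, was 13.7, 16.3, 16.6, 19.8 and 26.4 CPM in Control d14 and between 20.9 and 27.2 CPM (median 24.4) in ExpOF d14. Here 4 controls lay below every ExpOF library, and replicate 1 was exceeded by 1 of them. The log2 fold change was 0.39 ± 0.13 (adjusted p = 0.135, edgeR), with 0.50 in July and 0.21 in September mice.

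Pcdhb11 was 2.79, 3.05, 3.22, 3.36 and 3.42 CPM in Control d14 and between 3.33 and 4.52 CPM (median 4.47) in ExpOF d14. Of the ExpOF libraries 5 were above every control. Its log2 fold change was 0.41 ± 0.14 (adjusted p = 0.137, edgeR), and Control d14 replicate 4 was not low for this gene (3.20 CPM).

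Pcdhga2 was 8.10, 8.60, 9.38, 11.3 and 12.7 CPM in Control d14 and between 11.5 and 14.0 CPM (median 12.7) in ExpOF d14, with only replicate 1 of the controls inside the ExpOF range. The log2 fold change was 0.34 ± 0.13 (adjusted p = 0.139, edgeR). The other members higher at an unadjusted p under 0.05 were Pcdha8, Pcdha9, Pcdhb13, Pcdhb18, Pcdhb19, Pcdhga4, Pcdhga8, Pcdhga12, Pcdhgb6 and Pcdhgb8, with log2 fold changes from 0.26 (Pcdhgb6) to 0.83 (Pcdha8). Pcdha8 had a mean of only 12.5 counts per library, and its ExpOF d14 values of 0.225 to 1.22 CPM spanned those of Control d14 (0.230 to 0.57). Pcdhgb8 is annotated as a polymorphic pseudogene, the only member so annotated. The members with the largest p were Pcdha4 (0.0043 ± 0.32 on the log2 scale) and Pcdhb7 (0.00035 ± 0.28).

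The C-type genes were all above 0 on d14, with a median log2 fold change of 0.17. Pcdhgc4 was 30.7, 34.6, 39.0, 44.3 and 48.2 CPM in Control d14 and between 39.7 and 48.9 CPM (median 44.2) in ExpOF d14, which overlapped widely. Pcdhgc3 was 22.3, 24.7, 25.2, 26.6 and 28.9 CPM in Control d14 and between 27.2 and 28.9 CPM (median 28.6) in ExpOF d14, so that 4 controls were below every ExpOF library. Their log2 fold changes were 0.17 ± 0.097 and 0.15 ± 0.083 (adjusted p = 0.248 and 0.249, edgeR). Pcdhac1 (0.37 ± 0.22) and Pcdhgc5 (0.13 ± 0.11) did not pass the test either.

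**Figure D4:**
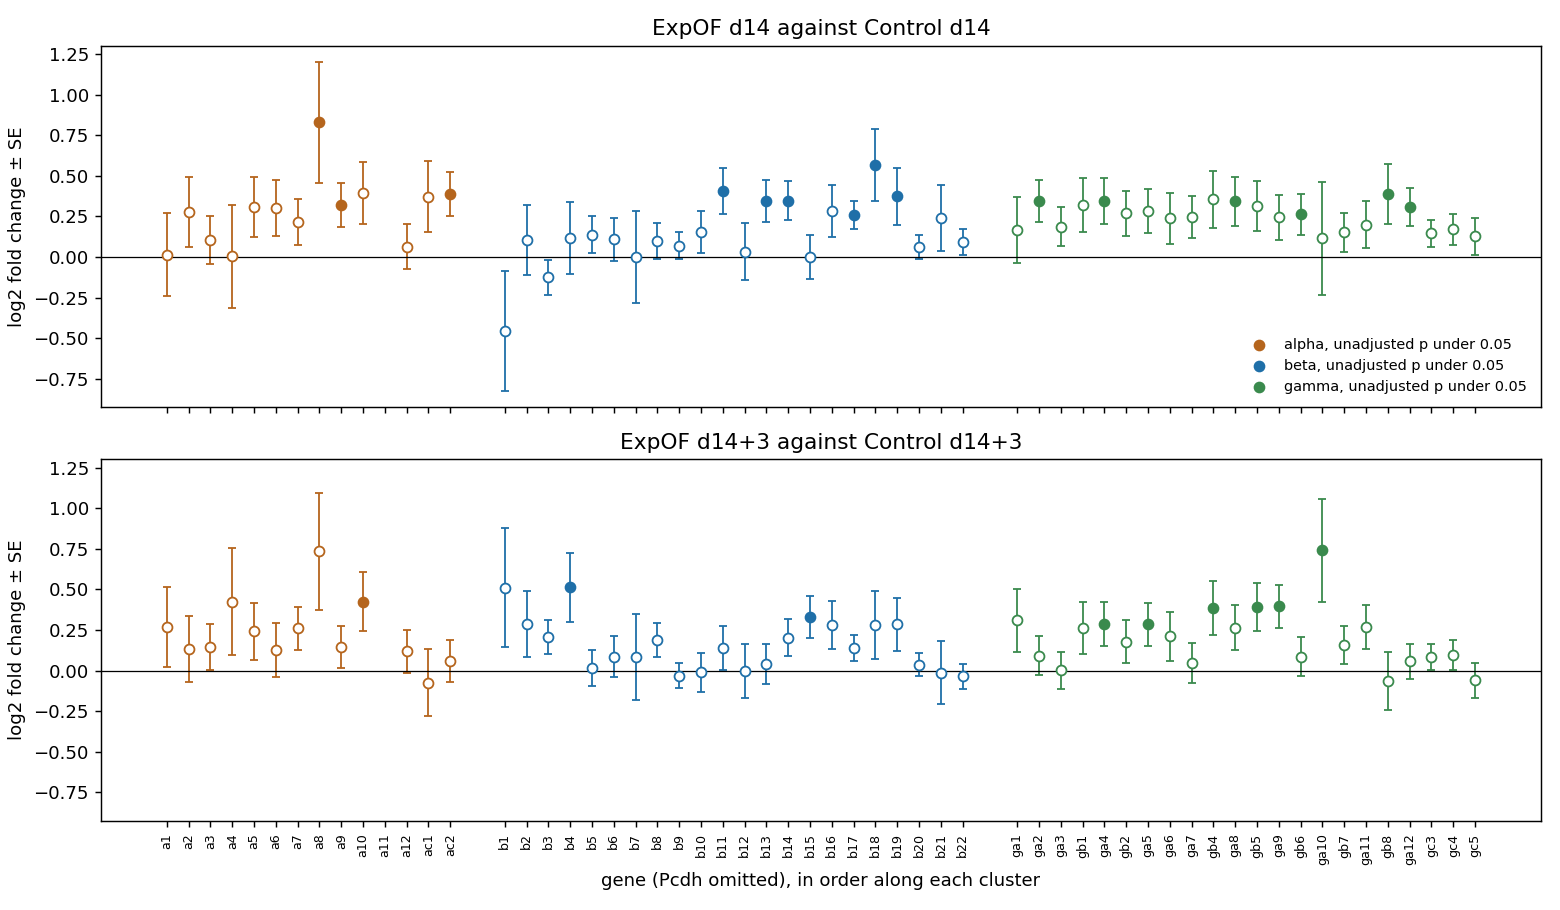
Log2 fold change of each tested member (vertical axis, bars SE), ExpOF against control mice of the same day, in order along each cluster. Filled points have an unadjusted p under 0.05 (15 on d14, 9 on d14+3), and 54 of 57 points on d14 and 49 of 57 on d14+3 lie above 0.

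Among other highly expressed members, Pcdha9 had a log2 fold change of 0.32 ± 0.14, Pcdhga7 of 0.25 ± 0.13, Pcdhb22 of 0.093 ± 0.080, Pcdhb9 of 0.070 ± 0.081 and Pcdha12 of 0.062 ± 0.14 on d14 (adjusted p from 0.152 to 0.790, edgeR). Pcdhga7 was 13.6, 15.1, 15.2, 19.4 and 25.4 CPM in Control d14 and between 17.4 and 24.2 CPM (median 21.5) in ExpOF d14, so that the highest library of all was a control. Pcdhb9 was 11.0, 11.1, 11.3, 11.7 and 12.9 CPM in Control d14 and between 11.1 and 14.5 CPM (median 11.7) in ExpOF d14. The d14 groups overlapped for every one of the 57 members, where 1.54% of all genes had every ExpOF library above every control and 0.958% every one below.

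Within the beta cluster the d14 difference was not even. Along the chromosome, Pcdhb1 to Pcdhb10 had a median log2 fold change of 0.10 and 0 of 10 had an unadjusted p under 0.05. Pcdhb11 to Pcdhb19 had a median of 0.34 with 6 of 9, and Pcdhb20 to Pcdhb22 a median of 0.093 with 0 of 3. The 3 stretches were drawn after the values were seen, so these counts are a description. They also differ in base composition and length. The median GC content was 47.6% for Pcdhb1 to Pcdhb10, 43.8% for Pcdhb11 to Pcdhb19 and 44.7% for Pcdhb20 to Pcdhb22. The median lengths were 3493, 4660 and 4705 bases in the same order. Pcdhb20 to Pcdhb22 were thus close to Pcdhb11 to Pcdhb19 in GC content and length. Their median log2 fold change was close to that of Pcdhb1 to Pcdhb10.

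Across the 22 beta genes, the d14 log2 fold change had a Spearman correlation of -0.65 with GC content and 0.65 with length, and the genes share the same libraries. After removal of each library's trends with length and GC content, the correlations were -0.25 and 0.24. The log2 fold change of Pcdhb14, the longest beta gene and the lowest in GC content, was then 0.083 in place of 0.35. In that fit 21 of the 57 members were higher on d14 at an unadjusted p under 0.05 and 0 were lower, against 10% and 8.71% of all genes. On d14+3 there were 8 higher, against 3.9%. Before this removal, the d14+3 correlations in the beta cluster were -0.067 and -0.039. In the alpha and gamma clusters the d14 correlation with GC content was -0.15 (13 genes) and -0.077 (22 genes). GC content was that of the longest transcript and length that of all exon bases. For alpha and gamma genes both include the shared exons, here and in the removal of trends, and are not those of the own bases.

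**Figure D5:**
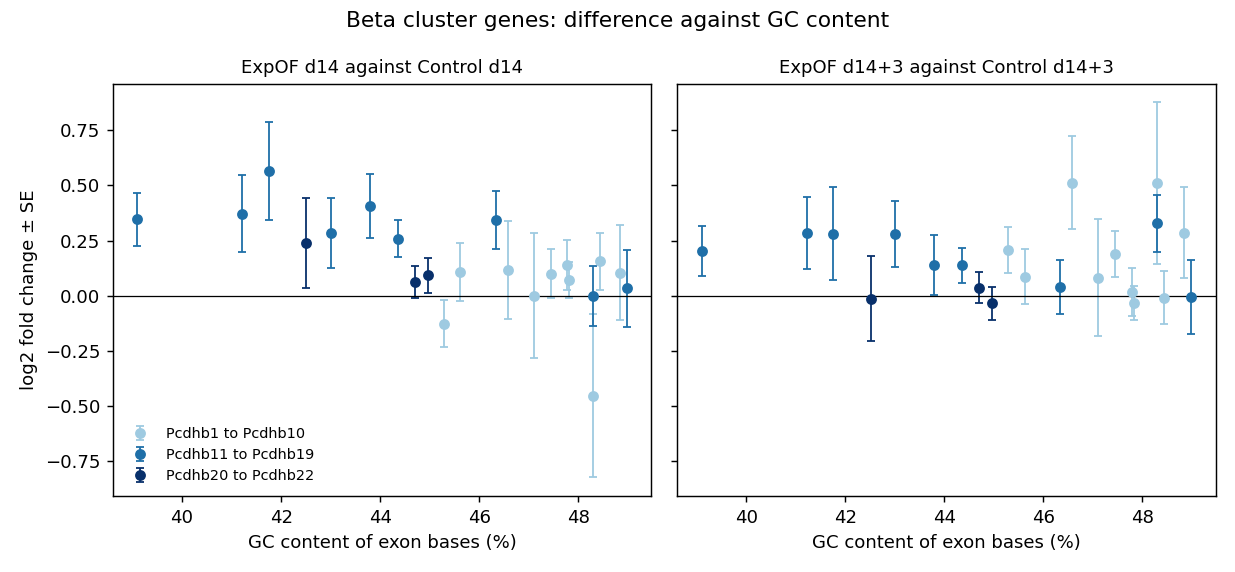
Log2 fold change of the 22 beta genes (vertical axis, bars SE) against the GC content of their exon bases (horizontal axis), on d14 (left) and d14+3 (right). On d14 the genes with the lowest GC content lie higher, and most of these belong to the stretch from Pcdhb11 to Pcdhb19. On d14+3 no such slope is seen.

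The second question was whether a difference was present 3 days after overfeeding. The summed alpha level was 53.2 ± 6.40 CPM in ExpOF d14+3 and 48.6 ± 5.69 in Control d14+3 (SD, n = 6), a ratio of 1.09. For beta the levels were 131 ± 9.83 and 121 ± 6.42 CPM (ratio 1.08), and for gamma 261 ± 31.2 and 237 ± 22.5 CPM (ratio 1.10). The groups overlapped in each cluster, and ExpOF d14+3 replicate 5, at 44.1, 114 and 216 CPM, lay within the control range in all of them.

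On d14+3, 0 of 57 members passed adjustment in edgeR and 0 in DESeq2, where the background was 0% of all genes in edgeR and 0.29% in DESeq2. At an unadjusted p under 0.05, 9 members were higher (1 alpha, 2 beta and 6 gamma) and 0 were lower, with a background of 2.91% of all genes higher and 4.2% lower. DESeq2 also gave 9 higher, against 3.03% of all genes. Fold changes above 0 were found for 49 of 57 members, against 52.1% of all genes. The median log2 fold change was 0.14 for alpha, 0.14 for beta and 0.19 for gamma. The count of 9 was 4 without Control d14+3 replicate 1 (2.1% of all genes higher in that fit), 5 without ExpOF d14+3 replicate 6 (3.06%) and 16 without ExpOF d14+3 replicate 5 (5.12%).

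The smallest p on d14+3 belonged to Pcdhga9. Its level ranged from 4.52 to 6.75 CPM (median 6.04) in Control d14+3 and from 6.00 to 9.48 CPM (median 7.82) in ExpOF d14+3. Of the ExpOF libraries 4 were above every control. Its log2 fold change was 0.39 ± 0.13 (adjusted p = 0.492, edgeR), with 0.38 in July and 0.41 in September mice.

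Pcdhgb5 ranged from 2.60 to 4.53 CPM (median 3.62) in Control d14+3 and from 3.52 to 6.27 CPM (median 4.63) in ExpOF d14+3. On the log2 scale the difference was 0.39 ± 0.15 (adjusted p = 0.575, edgeR). In ExpOF d14+3, 3 libraries were above every control and 3 were not.

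Pcdhb15 ranged from 2.76 to 3.52 CPM (median 3.11) in Control d14+3 and from 3.42 to 4.66 CPM (median 3.81) in ExpOF d14+3, with a log2 fold change of 0.33 ± 0.13 (adjusted p = 0.590, edgeR). On d14 the same gene had a log2 fold change of -0.0019 ± 0.14. Pcdhb4 had 0.51 ± 0.21 and Pcdhga10 0.74 ± 0.32 on d14+3, the latter at a mean of 0.666 CPM and with the antisense overlap given above.

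The d14 members with the smallest p were smaller on d14+3: Pcdhb17 had 0.14 ± 0.080, Pcdhb14 0.20 ± 0.11, Pcdhac2 0.058 ± 0.13, Pcdhb11 0.14 ± 0.14 and Pcdhga2 0.092 ± 0.12 on the log2 scale. These genes were picked by their d14 values, so smaller values in the other comparison are no result by themselves. Of the C-type genes, 3 of 5 were above 0 on d14+3 with a median of 0.058. Pcdhgc3 ranged from 26.6 to 30.6 CPM (median 28.6) in Control d14+3 and from 26.3 to 39.9 CPM (median 28.9) in ExpOF d14+3, and only replicate 6 was above the control range. Pcdhb12 (-0.0056 ± 0.17) and Pcdhga3 (0.0016 ± 0.11) had the largest p.

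The d14 and d14+3 comparisons share no mice. In both, 46 of the 57 members were above 0, against 35% of all genes, and 0 were below 0 in both, against 36.3%. Most members were above 0 on each day alone, so a large overlap follows from the counts of the single days. Members also moved together within a library and are not separate observations, so the overlap is a description. Only Pcdhga4 had an unadjusted p under 0.05 on each day, where 0.785% of all genes were higher on both (log2 fold change 0.35 ± 0.14 and 0.29 ± 0.14, adjusted p = 0.148 and 0.702, edgeR), and it was singled out after its values were seen.

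The difference between the d14 and d14+3 effects was tested as an interaction. It passed adjustment for 0 of 57 members in edgeR and in DESeq2, where the background was 0% of all genes. At an unadjusted p under 0.05 it was lower for 1 member and higher for 0, against 2.78% of all genes lower and 1.64% higher. That member was Pcdhb3, named after its values were seen, with -0.33 ± 0.15 on the log2 scale (adjusted p = 0.903, edgeR). Both counts lie below the shares of all genes and are no result about the members. Without Control d14 replicate 1, 8 members had a higher d14 effect at an unadjusted p under 0.05, against 5.69% of all genes, and 0 passed adjustment in edgeR. For Pcdhac2 the interaction was 0.33 ± 0.18 and for Pcdhb17 0.12 ± 0.12, so the smaller d14+3 values given above were not shown to differ from those of d14.

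The groups were also compared across days. Between Control d14+3 and Control d14, 0 of 57 members passed adjustment in edgeR and in DESeq2, against 1.15% of all genes in edgeR and 2.8% in DESeq2. At an unadjusted p under 0.05, Pcdhb13 (0.40 ± 0.13) and Pcdhb10 (0.30 ± 0.13) were higher on d14+3 and Pcdhb3 (-0.35 ± 0.11, adjusted p = 0.123, edgeR) was lower, against 6.81% of all genes higher and 5.93% lower. All 3 were named after their values were seen. These counts lie below the shares of all genes and are no result about the members. The summed level of 7 thalamus and cortex genes also differed between the days, at 75.3 to 330 CPM in Control d14 and 237 to 578 CPM in Control d14+3, and at 83.4 to 206 and 211 to 536 CPM in the ExpOF groups. The part of these genes in the comparisons across days was not tested. Without Control d14 replicate 1, 12 members were higher at an unadjusted p under 0.05, against 9.67% of all genes. Between ExpOF d14+3 and ExpOF d14, 0 of 57 members passed adjustment in either tool and 0 had an unadjusted p under 0.05, where the background was 0% and 7.79% of all genes in edgeR, and 1.06% after adjustment in DESeq2.

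The values within July and September mice are given side by side, and the difference between the months was not tested. On d14 the log2 ratio of the summed CPM was 0.42 in July and 0.16 in September for alpha, 0.20 and 0.12 for beta, and 0.34 and 0.083 for gamma. The 57 fold changes were above 0 for 52 members in July (46.9% of all genes) and 42 in September (47.7%). September holds only 2 Control d14 libraries, replicates 1 and 5. On d14+3 the log2 ratio was 0.19 and 0.069 for alpha, 0.21 and 0.019 for beta, and 0.17 and 0.10 for gamma. In that comparison, 52 were above 0 in July (50.7% of all genes) and 39 in September (50%).

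Markers of other cell types and RNA quality were read beside these values. The RIN was 9.20 ± 0.860 (SD, n = 5) in Control d14 and 9.75 ± 0.138 (n = 6) in ExpOF d14, and with the RIN as covariate 19 members were higher at an unadjusted p under 0.05, against 15.7% of all genes. On d14+3 the RIN was 8.62 ± 1.09 in Control and 9.43 ± 0.450 in ExpOF mice (SD, n = 6). In Control d14+3 it was 9.3 to 9.9 in extraction round 1 and 7.2 to 7.9 in round 2. RIN and round cannot be told apart in that group. With the RIN as covariate 10 members were higher on d14+3, against 5.53% of all genes, and 0 members passed adjustment in edgeR, against 0.137%. The summed CPM of 7 choroid plexus genes such as Ttr was between 40.3 and 45.9 in 4 Control d14 libraries, 3058 in Control d14 replicate 5 and between 38.3 and 44.7 in ExpOF d14. Of the 6 tested, 4 were lower in ExpOF at an unadjusted p under 0.05. Over all genes 13.6% were lower and 13.1% higher on d14, which is the background of each d14 marker count given here. Without replicate 5 the count of higher members was 8, as given above. The 7 meningeal genes such as Col1a1 summed to 331 to 656 CPM in Control d14 and 259 to 392 CPM in ExpOF d14, with 3 of 7 lower at an unadjusted p under 0.05. The 10 neuronal genes such as Snap25, Rbfox3 and Syt1 summed to 4654 to 4848 CPM in Control d14 and 4795 to 5328 CPM in ExpOF d14, with 3 of 10 higher. The 16 hypothalamic genes summed to 817 to 1441 CPM in Control d14 and 769 to 1029 CPM in ExpOF d14, with 7 lower and 1 higher. On d14+3 the choroid plexus genes stood at 1308 CPM in ExpOF d14+3 replicate 4 and at 39.5 to 68.0 CPM in the other libraries of that day, and without replicate 4 the count of 9 higher members was 10, against 3.1% of all genes. The part of these differences in the protocadherin values was not tested. Of the pituitary genes, Lhb was at 0 in every library.

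Genes related in function were read in the same fit. Non-clustered protocadherins, adhesion proteins of the same family that lie outside the arrays, were higher in ExpOF d14 at an unadjusted p under 0.05 for 8 of 12 genes and lower for 0, where the shares of all genes were 13.1% and 13.6%. Their summed level was 1111 CPM in Control d14 replicate 1, inside the ExpOF d14 range of 1034 to 1138. It was 730 to 943 CPM in the other Control d14 libraries used. Counts without single libraries are not given for this list. Pcdh10 was 182 ± 9.35 CPM in ExpOF d14 and 148 ± 21.7 in Control d14, a log2 fold change of 0.29 ± 0.091 (adjusted p = 0.135, edgeR). Pcdh20 had 0.36 ± 0.13 and Pcdh9 0.31 ± 0.11. On d14+3, 1 of 12 was higher, against 2.91% of all genes, and 0 passed adjustment on either day in edgeR.

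Among 23 regulators of promoter choice and chromatin, such as CTCF, the cohesin subunits and DNA methyltransferases, 8 were higher on d14 at an unadjusted p under 0.05 and 0 lower, against 13.1% and 13.6% of all genes. Their summed level was 1700 CPM in Control d14 replicate 1, inside the ExpOF d14 range of 1606 to 1710. It was 1419 to 1583 CPM in the other Control d14 libraries used. Counts without single libraries are not given for this list. On d14+3, 1 of the 23 was higher, against 2.91%. Smchd1, a chromatin silencer that acts on these clusters, was 52.2 ± 1.93 CPM in ExpOF d14 and 42.9 ± 6.36 in Control d14 (log2 fold change 0.28 ± 0.088, adjusted p = 0.135, edgeR). Nipbl, the cohesin loader, had 0.39 ± 0.14 and Setdb1, a histone H3K9 methyltransferase, 0.16 ± 0.058.

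Of 20 partners that act on the protocadherin cytoplasmic tail or cleave the protein, 4 were higher and 1 lower on d14 at an unadjusted p under 0.05, against 13.1% and 13.6% of all genes, which is no result about these genes. On d14+3 there were 0 in either direction. Adam10, the protease that sheds the extracellular part, had 0.31 ± 0.12, Psen2, a gamma-secretase subunit, -0.22 ± 0.095 and Wasf3, a WAVE complex subunit, 0.16 ± 0.073. In these 3 lists 0 genes passed adjustment on d14 or d14+3 in edgeR.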

How the data were processed

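RNA was measured by poly-A RNA-seq in 24 hypothalami. The deposited values are raw counts per gene, which the authors made by aligning paired reads with STAR to mm10 and counting them with featureCounts 1.6.4 over GENCODE genes. Whether counting used strand is not given in the sources used here. No other normalization had been applied.

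Groups came from the sample labels, and each library is a separate mouse. Control d14 replicate 4 was left out. Genes were filtered with filterByExpr (minimum count 10, total 15), scaled by TMM and fitted in 1 model of 4 groups with edgeR 4.0.16 (quasi-likelihood, robust), run in R 4.3.3. Benjamini-Hochberg adjustment covered 18992 genes, and the threshold was 0.05. Unadjusted p-values are named as such. Levels are CPM with TMM-scaled library sizes, divided by own exon bases where stated. Per-library deviations used a pseudocount of 0.1 CPM. DESeq2 1.42.0 was an alternative, as were other filters, size factors, covariates (RIN, killing month with extraction round), a replicate block, July or September mice alone, removal of length and GC trends by splines with 5 degrees of freedom, and leaving out each library. The scripts were tested on simulated counts.

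Genes named with values were the C-type genes, the 3 most abundant of each cluster, and the 5 with the smallest and 2 with the largest p on each day. Other members given with a value were picked after their values were seen. From each related list the 3 genes with the smallest p on d14 were named. Members and lists were chosen with earlier results of these data known. Library totals of 8928182 to 34848437 counts limit the precision of members with few counts, such as Pcdhb1, Pcdha4 and Pcdha8. No 2 libraries of a group agreed within sampling noise.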

Additional observations from a re-analysis of the deposited data

Results flagged for a closer look

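Of 104 sets of values, each 1 gene in 1 group of libraries, 7 held a library far from the rest of its group. Chance was taken to mark at least 1 in 20, a rate that was not estimated from these data. In ExpOF d14+3 replicate 6, Pcdhgc3 was 39.9 CPM with the next library at 30.1, and Pcdhb9 was 14.7 CPM with the next at 12.4. In Control d14 replicate 1, Pcdhb4 was 2.89 CPM with the next library at 1.86, and Pcdhga3 was 14.9 CPM with the next at 10.8. In Control d14+3 replicate 3, Pcdha4 was 0.147 CPM with the next library at 0.363, and Pcdhb12 was 3.89 CPM with the next at 3.02. In ExpOF d14 replicate 5, Pcdhb14 was 8.56 CPM with the next library at 10.3.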

How the results depend on the processing

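Of the values that answer a comparison, 144 kept their direction and side of the threshold under the other settings and 7 moved. September mice alone gave 1 member higher at an unadjusted p under 0.05 on d14 (1.68% of all genes), a median alpha log2 fold change of 0.093, and 1 member higher on d14+3 (1.53%). All 24 libraries gave a beta median of 0.29 on d14 and 0 members higher on d14+3 (0.922% of all genes). With the deposited length, the alpha median was 0.460 and the gamma median 1.74 CPM per kilobase. Leaving out 1 library at a time gave 0 to 22 members called on d14, 6 to 34 higher at an unadjusted p under 0.05 and a beta median of 0.076 to 0.24, and 4 to 16 higher on d14+3. The cause was not tested.

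Direction turned for single genes with small differences. September mice alone gave d14+3 log2 fold changes of -0.017 for Pcdhac2, -0.0019 for Pcdhgc3, -0.037 for Pcdha12 and 0.063 for Pcdhb12, and -0.020 for Pcdhb9 on d14. July mice alone gave 0.065 for Pcdhgc5, 0.059 for Pcdhb9, 0.047 for Pcdhb22 and -0.056 for Pcdhga3 on d14+3, and -0.055 for Pcdha12 and -0.037 for Pcdha4 on d14. Removal of length and GC trends gave -0.016 for Pcdhb22 and -0.048 for Pcdha4 on d14 and 0.018 for Pcdhb12 on d14+3. Pcdha4 was -0.011 with month and round as covariates. Pcdhb7 was -0.010 with RIN and -0.0047 with only the 2 groups. Pcdhga3 on d14+3 was -0.0031 without a filter, -0.0050 with all 24 libraries and -0.017 with RIN.

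Leaving out 1 library at a time gave ranges that crossed 0 on d14 for Pcdha12 (-0.035 to 0.17), Pcdha4 (-0.16 to 0.11) and Pcdhb7 (-0.097 to 0.12). On d14+3 they did so for Pcdhac1 (-0.16 to 0.0030), Pcdhac2 (-2.36e-05 to 0.11), Pcdhgc3 (-0.012 to 0.12), Pcdhgc5 (-0.13 to 0.0011), Pcdhb22 (-0.088 to 0.011), Pcdhga7 (-0.0010 to 0.098), Pcdhb12 (-0.073 to 0.081) and Pcdhga3 (-0.051 to 0.074). Without Control d14 replicate 1, Pcdhac2, Pcdha9, Pcdhb17, Pcdhga7, Pcdhb14, Pcdhb11 and Pcdhga2 passed adjustment on d14 in edgeR.

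Replicate numbers did not pair the mice: deviations of same-numbered libraries correlated at -0.153 to -0.0236 on d14 and -0.210 to 0.223 on d14+3, and no library correlated best with its own number. With the replicate block, 0 members were called, 15 were higher on d14 (10.7% of all genes) and 10 on d14+3 (2.1%) at an unadjusted p under 0.05, and the d14 values of Pcdha4 and Pcdhb7 were -0.13 and -0.030.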
